A study of Mus musculus with 41 samples.

Results

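Gene expression at dusk was compared with gene expression at dawn in epidermal stem cells of mice on a control diet. Dawn is ZT0 and dusk is ZT12, where ZT (zeitgeber time) counts hours from lights on; the light schedule is not given in the labels. The arrays were chosen by their titles, which give the diet and the time point, and 7 of the 41 arrays of the series qualified: 4 at ZT0 and 3 at ZT12. All 17097 genes that could be named on the array were tested. In both groups the mice were female, of the strain C57B6/J and wild type, ate freely, and were 15 weeks old after 7 weeks on the control diet, begun at 8 weeks. The tissue is given as epidermis and the cells as epidermal stem cells, and how they were isolated is not given in the labels. The other diet of the series, a high fat diet, has 3 arrays at ZT0 and 4 at ZT12 from mice of the same strain, sex, genotype and age. It is used here as a second set of arrays at the same times.

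The design text plans 4 mice for each diet and time point and collects 1 time point per day. Time point and collection day therefore coincide, and a difference between ZT12 and ZT0 cannot be told apart from a difference between the days. The arrays carry replicate numbers and are not each stated to be a separate mouse, and the p-values therefore reflect array-to-array spread, which may in part be technical.

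The circadian clock is a feedback loop of transcription. BMAL1 (gene Arntl) pairs with CLOCK or NPAS2 and switches on the Per, Cry, Nr1d and Dbp genes through a DNA element called the E-box, and the PER and CRY proteins then block that activity. In epidermis the clock is known for gating the cell cycle, so that DNA replication and mitosis fall at different times of day. Dusk is the start of the active phase of a mouse.

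Values are log2 intensities after RMA, so a difference of 1 is a doubling of the signal of that probe set. Over the 7 arrays the medians lay between 6.42 and 6.43. Correlations between arrays of 1 group were 0.990 to 0.995, and those between the groups were 0.985 to 0.990, each below the lowest value within a group. The first principal component, with 39.3% of the variance, separated the ZT0 arrays (-12.6 to -9.9) from the ZT12 arrays (12.8 to 16.4). The difference between 3′ and 5′ actin control probe sets, a sign of RNA quality, ran from -0.78 to -0.63 at ZT0 and from -0.75 to -0.71 at ZT12, so the groups overlapped. The Gapdh control probe sets overlapped too (-0.36 to -0.25 and -0.33 to -0.29).

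The cells carried the markers of basal keratinocytes at both times. Krt5 and Krt14, the keratin pair of the basal layer, averaged 12.75 and 12.65 at ZT0 and 12.71 and 12.61 at ZT12, near the top of the scale. Itga6, the integrin that anchors basal cells, averaged 10.82 and 10.94. Krt1 and Krt10, keratins of the layers above, were also bright (12.51 and 12.06 at ZT0, 12.54 and 12.07 at ZT12). Cd34, which marks bulge stem cells of the hair follicle, averaged 5.49 and 5.18. The 23 nonspecific control probe sets spanned 3.67 to 8.72 (median 4.56), a range that also holds genes reported here as called, such as Per2 and Cdc6, so it sets no limit of detection for Cd34.

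Between dawn and dusk, 447 genes (2.61% of the 17097 tested) passed an adjusted p of 0.05 in limma, with 184 higher at ZT12 (1.08%) and 263 lower (1.54%). At an unadjusted p under 0.05 there were 2445. The median size of the 447 differences was 0.55 on the log2 scale, 205 were at least 1.5-fold and 65 at least 2-fold (27 higher, 38 lower). The median difference over all genes was -0.02. In 438 of the 447 genes the values of the ZT12 arrays did not overlap those of the ZT0 arrays, which was also so for 15.8% of all genes (6% higher, 9.8% lower). The number of genes called depended on each ZT12 array: it was 258 without replicate 1, 220 without replicate 2 and 284 without replicate 3, against 340 to 405 when a ZT0 array was left out. Letting arrays carry unequal weight raised it to 963.

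Clock and cell division genes made up a large share of the strongest differences. Of the 27 genes at least 2-fold higher, 9 were clock repressors or outputs and 4 were S phase genes. Of the 38 at least 2-fold lower, 12 were in the list of mitosis genes and 1 was the clock activator Arntl. Most of the smaller differences lay elsewhere, since 137 of the 184 genes that rose and 228 of the 263 that fell were in none of the 42 lists examined. In the percent of members past the threshold, the clock repressors, the clock outputs and the S phase genes stood on the side of rises, and the mitosis genes on the side of falls.

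**Figure D1:**
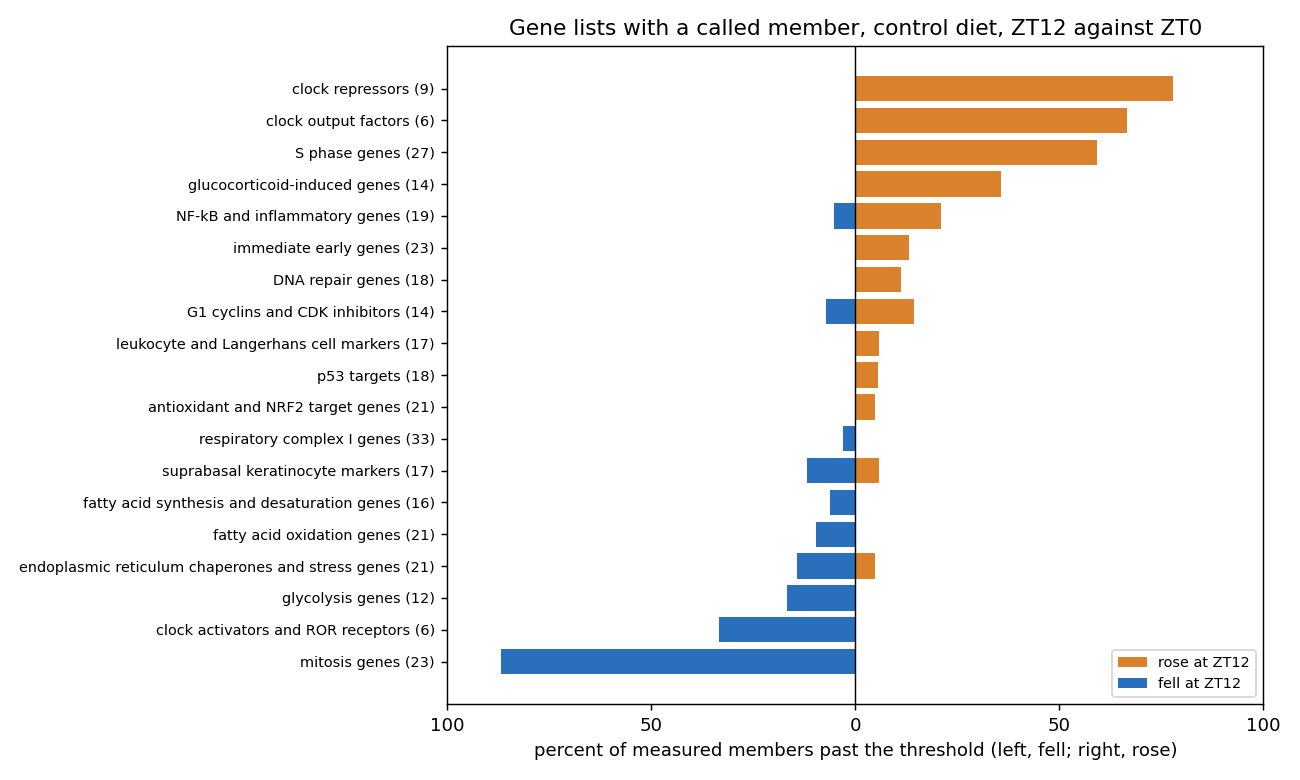
Percent of the measured members of each gene list that were past the threshold (limma, adjusted p under 0.05) at ZT12 against ZT0 on the control diet, with falls drawn to the left and rises to the right, for the lists with at least 1 such member. The number of measured members is in brackets; 20 of 23 mitosis genes fell and 16 of 27 S phase genes rose.

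Of the activators of the clock, the genes for BMAL1 and its partner NPAS2 were low at dusk. Arntl read 8.69, 8.97, 9.65 and 9.37 on the ZT0 arrays and 6.75, 7.43 and 6.65 on the ZT12 arrays. Every ZT12 array was more than 1 unit below every ZT0 array. Its log2 difference was -2.23 ± 0.31 (SE), 4.69-fold lower, with an adjusted p of 1.8e-05, and its other probe set gave -0.76. Npas2 read 8.78, 8.90, 8.90 and 8.66 at ZT0 and 7.90, 7.86 and 7.99 at ZT12, again with no overlap. Its difference was -0.89 ± 0.08 (adjusted p = 3.53e-09), and -2.74 in its other probe set. These were the 2 of 6 measured activator and ROR genes that fell. Clock, the common partner of BMAL1, had a difference of 0.36 ± 0.18 (adjusted p = 0.35) with overlapping arrays, and Arntl2, a paralog of Arntl, had 0.11 ± 0.10 (adjusted p = 0.67). Of the ROR receptors, which activate Arntl, Rora differed by 0.24 ± 0.08 (adjusted p = 0.105) and Rorb by 0.03 ± 0.06.

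Of the 9 measured repressors, 7 rose at dusk and none fell, with a median difference of 1.42. The 3 Period genes, whose proteins block BMAL1, were all among them. Per2 read 6.26, 6.68, 6.47 and 6.45 at ZT0 and 8.56, 8.24 and 8.63 at ZT12. The lowest ZT12 array was well above the highest ZT0 array, and the difference of 2.01 ± 0.14 (4.03-fold, adjusted p = 2.36e-11) was the largest rise among the named genes. Its other probe set gave 4.00. Per1 rose by 1.49 ± 0.22 (adjusted p = 5.99e-05) and Per3 by 1.45 ± 0.14 (adjusted p = 5.22e-08).

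Nr1d2, which encodes the Arntl repressor REV-ERB beta, read 7.63, 7.99, 7.55 and 7.67 at ZT0 and 9.24, 9.50 and 9.67 at ZT12. The groups did not overlap, and the rise was 1.76 ± 0.16 (adjusted p = 3.53e-09). Ciart, which encodes a further inhibitor of BMAL1 and CLOCK, read 7.34, 7.53, 7.42 and 7.40 at ZT0 and 9.08, 8.73 and 8.71 at ZT12. All 3 ZT12 arrays were high, with a rise of 1.42 ± 0.11 (adjusted p = 6.44e-11). Cry2, a cryptochrome, rose by 1.29 ± 0.12 (adjusted p = 2.08e-08), and Bhlhe40, which competes for E-boxes, by 0.92 ± 0.19 (adjusted p = 0.00334). The Bhlhe40 means at ZT4 and ZT20 were higher still than that at ZT12, as given below with the other time points. The other cryptochrome gene, Cry1, did not pass: its arrays lay between 5.87 and 6.24 at ZT0 and between 6.01 and 6.33 at ZT12, a difference of 0.09 ± 0.19 (adjusted p = 0.893). Bhlhe41 also overlapped (0.09 ± 0.09, adjusted p = 0.727).

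The output factors carry the clock's timing to other genes. Tef, a PAR bZIP factor that binds the D-box element, read 8.16, 8.45, 8.24 and 8.35 at ZT0 and 9.95, 10.15 and 10.20 at ZT12. Its rise of 1.80 ± 0.12 had an adjusted p of 1.17e-11. Dbp, a factor of the same family and a direct BMAL1 target, read 6.78, 7.28, 6.92 and 7.24 at ZT0 and 8.56, 8.66 and 8.69 at ZT12. The ZT12 arrays lay close together and far above ZT0, with a rise of 1.58 ± 0.18 (adjusted p = 4.91e-07). Hlf, the third PAR bZIP gene, rose by 0.46 ± 0.09 (adjusted p = 0.00112) and Wee1, a kinase that holds back mitosis, by 1.01 ± 0.22 (adjusted p = 0.00545). In all, 4 of 6 output genes rose. Nfil3, which opposes the PAR factors at the D-box, overlapped between the groups (-0.18 ± 0.20, adjusted p = 0.76). Usp2, a ubiquitin protease, had non-overlapping arrays but a wide error (0.64 ± 0.37, adjusted p = 0.459).

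**Figure D2:**
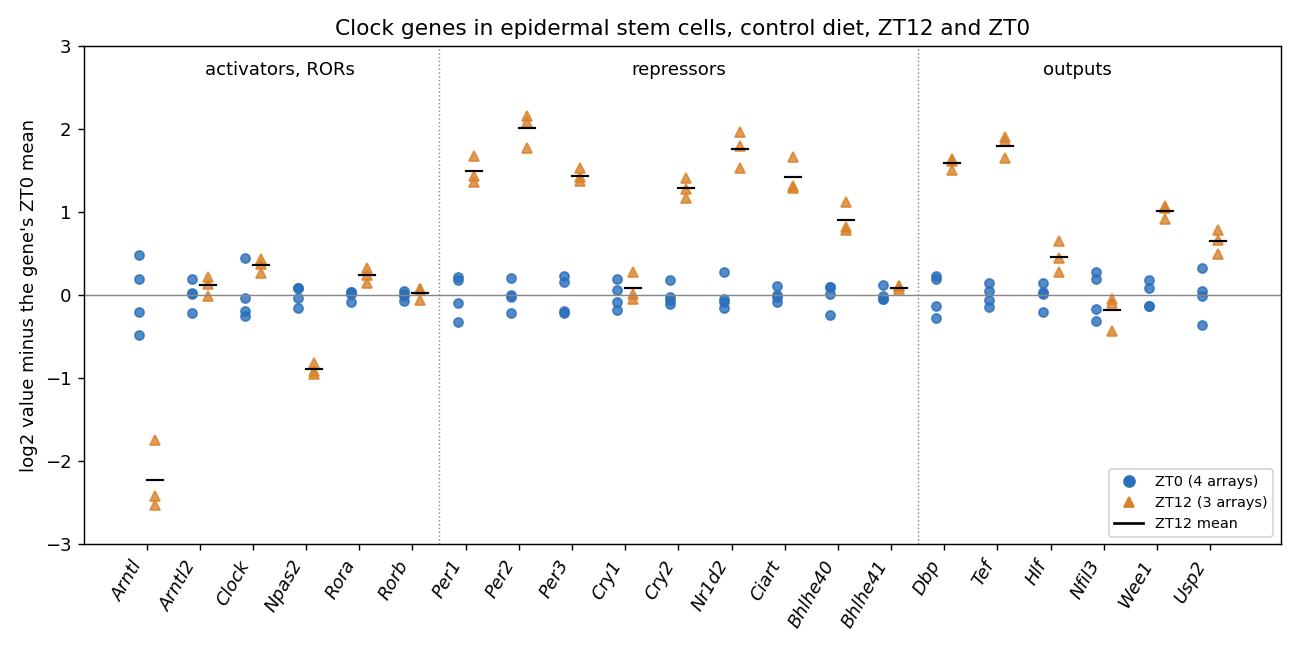
Values of the 21 measured clock genes on each of the 7 control diet arrays, as log2 value minus the mean of the 4 ZT0 arrays of that gene (circles ZT0, triangles ZT12, bars ZT12 mean). The triangles of Per1, Per2, Per3, Cry2, Nr1d2, Ciart, Dbp, Tef and Wee1 lie above all circles of their gene, those of Arntl and Npas2 lie below, and those of Cry1 and Nfil3 lie among them.

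Promoter sequence is shown for clock genes that moved together and whose windows hold the elements named above. The window is the 250 bases before the RefSeq start of a gene (build GRCm38.p6), and windows were found for 18 of the 21 measured clock genes. The E-box searched was CACGTG, which reads the same on both strands. It was in 6 of the 24 clock windows (25%) and in 6.02% of all 32851 windows of that length. The D-box searched was TTATGTAA on either strand, found in 1 of the 24 clock windows, that of Per3, and in 0.819% of all windows. Capitals mark the E-boxes of Ciart and Per1 and the D-boxes of Per3, and a match describes the letters in this window, not a bound site.
Ciart, chr3:95882229-95882478, minus strand, 3 E-boxes: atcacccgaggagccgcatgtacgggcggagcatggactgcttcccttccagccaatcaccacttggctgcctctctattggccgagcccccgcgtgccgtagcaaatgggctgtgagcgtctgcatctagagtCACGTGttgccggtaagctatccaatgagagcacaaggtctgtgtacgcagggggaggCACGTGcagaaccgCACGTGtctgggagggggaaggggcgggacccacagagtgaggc
Per1, chr11:69098699-69098948, plus strand, 1 E-box: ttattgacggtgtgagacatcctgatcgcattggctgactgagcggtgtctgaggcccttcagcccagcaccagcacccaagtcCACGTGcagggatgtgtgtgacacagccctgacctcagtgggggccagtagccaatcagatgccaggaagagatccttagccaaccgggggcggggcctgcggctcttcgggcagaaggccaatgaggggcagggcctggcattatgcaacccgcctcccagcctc
Per3, chr4:151044666-151044915, minus strand, 2 D-boxes: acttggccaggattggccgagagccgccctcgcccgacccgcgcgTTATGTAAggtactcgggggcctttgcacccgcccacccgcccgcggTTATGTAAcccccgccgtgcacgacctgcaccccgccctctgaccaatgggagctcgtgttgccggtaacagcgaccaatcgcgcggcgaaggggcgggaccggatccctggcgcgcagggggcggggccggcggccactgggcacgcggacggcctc

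The E-boxes of Ciart begin 116, 58 and 44 bases before its start, that of Per1 at 166 bases, and the D-boxes of Per3 at 205 and 158 bases. Tef has 1 E-box in each of its 2 windows, on chromosome 15. Cry1 and Bhlhe41, which overlapped between dawn and dusk, also have an E-box in the window.

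Across the 6 control diet time points, ZT0 and ZT12 were the extremes for part of the clock. Per2, Tef, Nr1d2, Per1, Ciart and Cry2 had their lowest mean at ZT0 and their highest at ZT12. Arntl and Npas2 were the reverse. For Per2 the mean was 6.47 ± 0.17 (SD, n = 4) at ZT0, 6.76 ± 0.06 (n = 2) at ZT8, 8.48 ± 0.21 (n = 3) at ZT12 and 8.32 ± 0.18 (n = 4) at ZT16. The means of ZT0 and ZT8 lay close together, and the level at ZT16 was within the spread of ZT12.

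For other clock genes ZT0 and ZT12 did not span the range of the means at the 6 time points. Cry1 averaged 6.05 ± 0.16 at ZT0 and 6.14 ± 0.17 at ZT12, and reached 7.32 ± 0.18 (n = 4) at ZT20. Nfil3 averaged 7.31 ± 0.28 and 7.13 ± 0.21, and reached 9.13 ± 0.29 at ZT20. Its means were 8.86 ± 0.15 at ZT4 and 7.24 ± 0.25 at ZT8. Usp2 and Rora had their highest means at ZT20 as well. Bhlhe40 averaged 9.20 ± 0.16 at ZT0 and 9.18 ± 0.12 at ZT8. It averaged 10.11 ± 0.18 at ZT12 and 10.36 ± 0.24 at ZT16, and reached 10.67 ± 0.17 at ZT4 and 10.67 ± 0.18 at ZT20. The Bhlhe40 mean at ZT12 was therefore above that of ZT0 but below those on either side of ZT0.

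**Figure D3:**
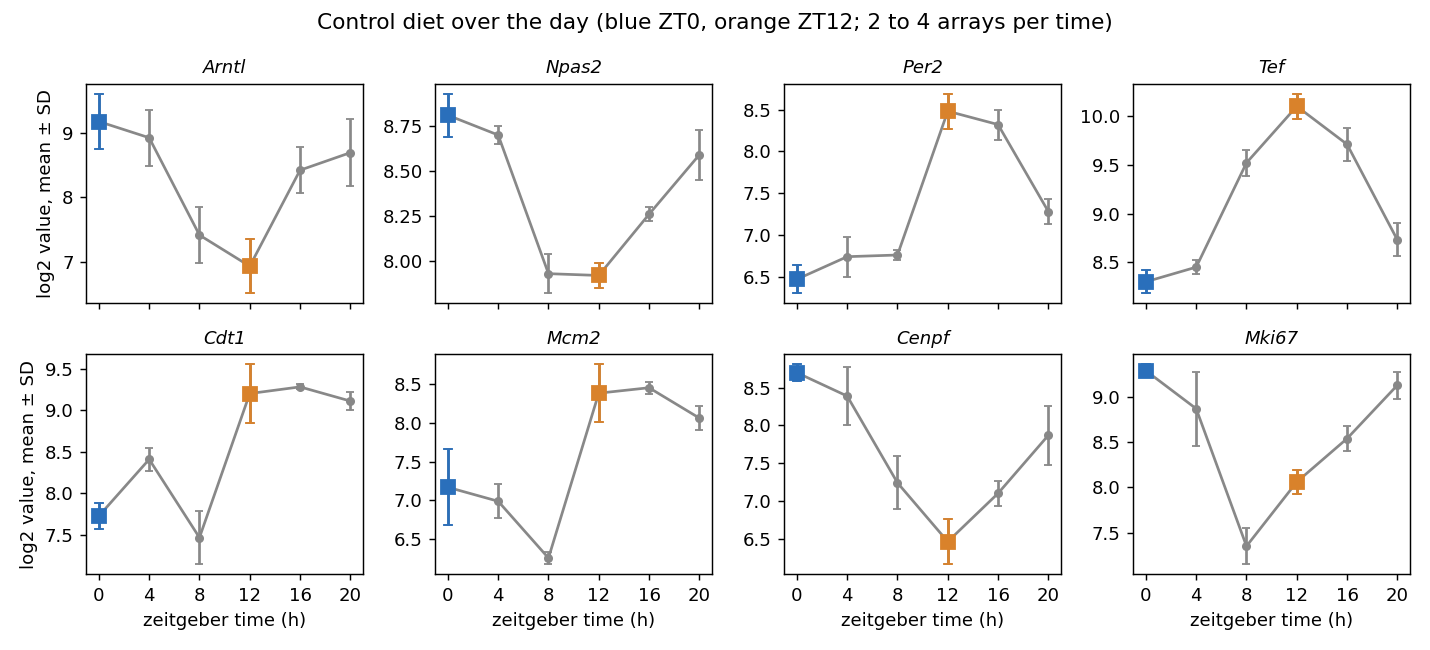
Mean log2 value ± SD of 8 genes at the 6 control diet time points (2 to 4 arrays each) against zeitgeber time in hours, with ZT0 as a blue square and ZT12 as an orange square. Arntl, Npas2 and Cenpf are highest at ZT0 and lowest at ZT12, Per2 and Tef the reverse, Cdt1 and Mcm2 are highest at ZT16, and Mki67 is lowest at ZT8.

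Genes of DNA replication rose at dusk. Of 27 measured S phase genes, 16 rose, none fell and 26 had a positive difference, with a median of 0.53 (range 0.00 to 1.48) against -0.02 over all genes. The list's mean level was 7.14 to 7.40 on the ZT0 arrays and 7.76 to 8.06 on the ZT12 arrays. In bulk samples such as these, fewer cells of a kind and less RNA per cell cannot be told apart, which holds for the cell cycle genes as for cell type markers.

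Licensing prepares replication origins before S phase. Cdt1, a licensing factor that loads the MCM helicase and had the largest rise of the list, read 7.93, 7.72, 7.71 and 7.54 at ZT0 and 8.81, 9.32 and 9.47 at ZT12. No ZT12 array came near the ZT0 arrays. The rise was 1.48 ± 0.21 (2.78-fold, adjusted p = 2.24e-05), while its other 2 probe sets gave -0.05 and 1.28.

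Its partner in loading, Cdc6, read 4.58, 4.67, 4.52 and 4.74 at ZT0 and 5.29, 5.48 and 5.44 at ZT12. These low values did not overlap either, with a rise of 0.78 ± 0.10 (adjusted p = 5.77e-06). Of the MCM helicase subunits, Mcm5 rose by 1.29 ± 0.25, Mcm2 by 1.21 ± 0.21, Mcm3 by 1.06 ± 0.21, Mcm4 by 0.99 ± 0.17 and Mcm6 by 0.91 ± 0.22. Mcm2 on ZT0 replicate 1 was 7.91, apart from 6.94, 6.97 and 6.86 on the other ZT0 arrays and still below the ZT12 arrays (8.12, 8.23 and 8.81). Its call was lost when only the 7 arrays were fitted. Mcm7 (0.36 ± 0.12, adjusted p = 0.104) and Mcm10 (0.00 ± 0.13) did not pass.

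The helicase cofactors Gins1 and Gins2 rose by 0.92 ± 0.25 and 0.97 ± 0.19, the DNA ligase gene Lig1 by 0.99 ± 0.18 and the polymerase gene Pola1 by 0.68 ± 0.14. E2f1, a transcription factor that drives S phase genes, rose by 0.59 ± 0.10 (adjusted p = 0.000414), and Ccne2, a cyclin of S phase entry, by 0.50 ± 0.09. Pcna, the sliding clamp, rose by 0.42 ± 0.10. The genes of nucleotide supply Rrm1, Rrm2 and Tyms had differences of 0.18, 0.02 and 0.35 and did not pass. Among repair genes, 2 of 18 rose: Ung, which removes uracil from DNA, by 1.44 ± 0.19 (adjusted p = 1.21e-05), and the mismatch repair gene Msh6 by 0.59 ± 0.13. Msh6 did not pass without ZT12 replicate 2 or 3.

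Of the cyclins and inhibitors of the G1 phase, 2 of 14 rose, and both are D cyclins. Ccnd2 rose by 0.76 ± 0.11 (adjusted p = 6.87e-05) and Ccnd1 by 0.66 ± 0.14 (adjusted p = 0.0043), which did not pass without ZT12 replicate 3. The CDK inhibitor Cdkn2c fell by 0.44 ± 0.10 (adjusted p = 0.0121), a call that was lost without ZT0 replicate 3, ZT12 replicate 1 or ZT12 replicate 2.

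Genes of mitosis fell at dusk. Of 23 measured, 20 fell and none rose, with a median of -1.05, a range of -2.24 to -0.26 and no positive difference. The list's mean level was 8.08 to 8.23 on the ZT0 arrays and 7.04 to 7.15 on the ZT12 arrays. Between 18 and 20 mitosis genes were past the threshold when 1 of the 7 arrays was left out.

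The sharpest fall among the named genes was that of Cenpf, which encodes a kinetochore protein. It read 8.57, 8.69, 8.72 and 8.83 at ZT0 and 6.12, 6.62 and 6.65 at ZT12. The ZT0 arrays were tightly grouped and the ZT12 arrays far below, at -2.24 ± 0.24 (4.72-fold lower, adjusted p = 3.02e-07). Its other 2 probe sets gave -1.46 and -0.04.

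Spindle and chromosome genes went with it. Aspm, which organises spindle poles, fell by 2.05 ± 0.15 (adjusted p = 5.63e-11), and so did Nusap1, a spindle protein (-1.83 ± 0.22, and -0.25 in its other probe set), and Aurkb, the kinase of the chromosomal passenger complex (-1.74 ± 0.26). Cdca8, another member of that complex, fell by 1.35 ± 0.19, and by 0.63 in its other probe set. Regulators of mitotic exit also fell: Cdc20, which activates the anaphase-promoting complex, by 1.39 ± 0.18, and Ube2c, the ubiquitin-conjugating enzyme of that complex, by 1.27 ± 0.20. Cytokinesis genes among the largest falls were Gas2l3 (-1.62 ± 0.17), Anln (-1.56 ± 0.25, and -0.29 in its other probe set) and Racgap1 (-1.54 ± 0.26). Cdkn3, a phosphatase acting on CDKs, fell by 1.97 ± 0.37, the cyclin gene Ccna2 by 1.42 ± 0.22 and the mitotic kinase Pbk by 1.25 ± 0.23.

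Mki67, the proliferation marker, read 9.22, 9.25, 9.32 and 9.38 at ZT0 and 7.91, 8.12 and 8.14 at ZT12. The groups were more than 1 unit apart, with a difference of -1.23 ± 0.14 (adjusted p = 6.66e-07). The mitosis genes that did not pass were Bub1 (-0.26, adjusted p = 0.328), Kif23 (-0.57, adjusted p = 0.264) and Tpx2 (-0.66, adjusted p = 0.0675).

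**Figure D4:**
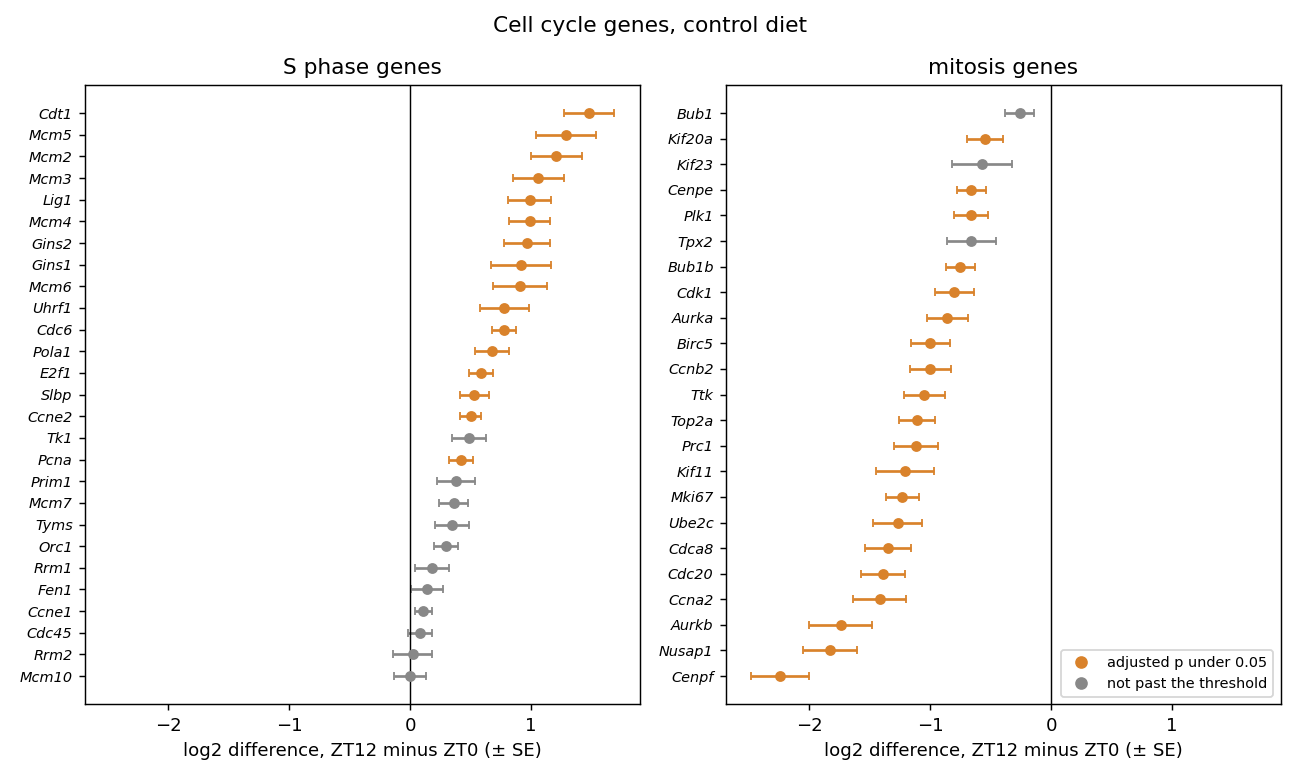
Log2 difference ZT12 minus ZT0 (± SE, control diet) of the 27 measured S phase genes and the 23 measured mitosis genes, coloured where the adjusted p (limma) was under 0.05. The S phase genes run from 0.00 to 1.48 and the mitosis genes from -2.24 to -0.26, so the ranges do not overlap.

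The course over the day was not the same within each list. Cenpf, Nusap1 and Ube2c were highest at ZT0 and lowest at ZT12, whereas Aurkb, Ccna2, Cdc20, Cdca8 and Mki67 were highest at ZT0 and lowest at ZT8, with ZT12 next. Mki67 averaged 7.35 ± 0.20 (SD, n = 2) at ZT8 and 8.06 ± 0.13 (n = 3) at ZT12. Cdt1, Mcm2 and Mcm4 were highest at ZT16 and Cdc6 at ZT12. Cdt1 averaged 7.47 ± 0.32 at ZT8, 9.20 ± 0.35 at ZT12 and 9.28 ± 0.03 (n = 4) at ZT16, so the level of ZT12 was not distinct from that of ZT16.

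Promoter windows are shown for 3 of these genes, because S phase and mitosis promoters are known for different elements. E2F sites mark S phase genes, and CCAAT boxes with a CHR element mark mitosis genes. The E2F letters searched on both strands were TTTCCCGC, TTTCGCGC, TTTGCCGC and TTTGGCGC. They were in 7 of 28 windows of 23 S phase genes (25%), in 1 of 20 windows of 19 mitosis genes and in 1.86% of all windows. CCAAT on either strand was in 18 of the 20 mitosis windows (90%) and in 17 of the 28 S phase windows (60.7%). It was also in 15 of the 24 clock windows (62.5%) and in 33.8% of all windows. Among clock repressors and outputs that rose, 9 of 10 windows held it (90%). The CHR letters TTTGAA were in 8 of 20 mitosis (40%), 3 of 28 S phase (10.7%) and 0 of 24 clock windows. Of all windows, 16% held them. Capitals mark the 2 overlapping E2F matches of Mcm5 and the CCAAT and CHR matches of Ube2c and Cdc20, read on either strand.
Mcm5, chr8:75109259-75109508, plus strand: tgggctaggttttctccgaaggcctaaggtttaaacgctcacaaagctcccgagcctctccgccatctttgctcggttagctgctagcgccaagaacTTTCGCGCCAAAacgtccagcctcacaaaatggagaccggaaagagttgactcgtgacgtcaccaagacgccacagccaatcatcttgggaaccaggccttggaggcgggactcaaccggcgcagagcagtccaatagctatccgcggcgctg
Ube2c, chr2:164769679-164769928, plus strand: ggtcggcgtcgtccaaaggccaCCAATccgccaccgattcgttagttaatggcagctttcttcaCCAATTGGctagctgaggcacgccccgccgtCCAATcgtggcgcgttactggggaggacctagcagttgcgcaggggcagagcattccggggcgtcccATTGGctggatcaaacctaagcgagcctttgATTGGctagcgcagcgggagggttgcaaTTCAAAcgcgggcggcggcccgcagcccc
Cdc20, chr4:118437344-118437593, minus strand: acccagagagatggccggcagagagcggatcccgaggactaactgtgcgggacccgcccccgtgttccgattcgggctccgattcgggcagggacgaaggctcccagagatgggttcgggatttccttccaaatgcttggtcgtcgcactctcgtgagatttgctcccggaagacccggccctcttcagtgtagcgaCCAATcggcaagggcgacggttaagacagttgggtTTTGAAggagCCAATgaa

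The S phase genes with an E2F match were Cdc6, Mcm5, Mcm6, Mcm7, Orc1, Pola1 and Uhrf1, of which Mcm7 and Orc1 did not pass the test. In Ube2c the CHR letters begin 29 bases before the start and the nearest of 6 CCAAT matches 57 bases before it. The matches at 186 and 183 bases overlap, since they are the same stretch read on both strands. In Cdc20 the CHR letters begin 18 bases before the start and lie between its 2 CCAAT matches, at 53 and 8 bases.

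Genes that glucocorticoid hormone induces rose in part. Corticosterone peaks near dusk in mice, and its receptor switches on the genes of this list. Of 14 measured, 5 rose and none fell, with a median of 0.43. Fkbp5, a cochaperone of the receptor, read 7.64, 7.17, 7.37 and 7.34 at ZT0 and 9.66, 8.49 and 8.77 at ZT12. All ZT12 arrays were higher, and they spread widely (SD 0.61). The rise was 1.60 ± 0.30 (adjusted p = 0.00138), while its other 2 probe sets gave -0.02 and 1.11.

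Tsc22d3, which encodes the anti-inflammatory protein GILZ, read 7.66, 7.68, 7.79 and 8.23 at ZT0 and 9.44, 9.29 and 8.78 at ZT12. The groups did not overlap, with a rise of 1.33 ± 0.21 (adjusted p = 0.000167), and its other probe sets gave 0.14 and 1.45. The transcription factor genes Zbtb16 and Klf9 rose by 0.95 ± 0.21 and 0.73 ± 0.13, and Per1, given above with the clock, is the fifth. The other 4 probe sets of Klf9 gave 0.08 to 1.44. Sgk1, Mt1, Pdk4, Lcn2 and Dusp1 had differences between -0.12 and 0.29 and did not pass.

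Some inflammatory and immediate early genes were called, and their number moved when single arrays were left out. Of 19 NF-kB and inflammatory genes, 4 rose and 1 fell, against 1.08% and 1.54% of all genes. Ptgs2, the inducible cyclooxygenase, read 5.24, 6.09, 4.58 and 5.28 at ZT0 and 7.55, 7.06 and 7.13 at ZT12. The ZT0 arrays covered 1.5 units yet stayed below ZT12, and the rise of 1.95 ± 0.46 (adjusted p = 0.0136) did not pass without ZT0 replicate 3 or ZT12 replicate 1. Its other probe set gave 0.62. Tnfaip3 and Nfkbia, both inhibitors of NF-kB, rose by 0.99 ± 0.18 and 0.48 ± 0.08, Sod2 by 0.36, and Nfkbie, a further inhibitor, fell by 0.65 ± 0.16. Without ZT0 replicate 3 or ZT12 replicate 1 the count of rises was 2, and Nfkbie did not pass without ZT0 replicate 3, ZT12 replicate 1 or ZT12 replicate 2. The cytokine genes Il1a, Il1b, Il6 and Tnf differed by 0.06 or less in size.

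Of 23 immediate early genes, whose transcription follows stimulation within minutes, 3 rose, none fell and 21 had a positive difference (median 0.23). Over all genes, 1.08% rose. At an unadjusted p under 0.05 (limma), 13 of the 23 were higher and 0 lower. All ZT12 arrays lay above all ZT0 arrays for 9 of them, and for 6% of all genes. Klf6 rose by 0.41 ± 0.08 (adjusted p = 0.00337), Nr4a2 by 0.67 ± 0.16 (adjusted p = 0.0154) and Fosl1 by 0.96 ± 0.27 (adjusted p = 0.0433). The other 4 probe sets of Nr4a2 gave 0.13 to 1.37. Fos, Egr1 and Jun had differences of 0.02, 0.07 and 0.38 and did not pass. The count of rises was 1 without ZT0 replicate 3, ZT12 replicate 1 or ZT12 replicate 2, and 9 without ZT0 replicate 4. It was 11 with array weights, 6 without the ZT8 arrays, 6 when all probe sets of a gene were averaged and 5 with the replicate block. Klf6, Tnfaip3 and Nfkbia passed without each of the 7 arrays in turn.

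Lists of metabolism and protein synthesis had few or no calls on the control diet. None of the 67 cytosolic ribosomal protein genes, the 73 mitochondrial ribosomal protein genes or the 37 proteasome genes passed in limma, with medians of -0.07, -0.11 and -0.08. At an unadjusted p under 0.05 there were 1, 2 and 0 higher and 12, 12 and 5 lower, against 2445 of all 17097 genes in either direction. The differences were small but mostly negative, in 63, 59 and 31 of the genes of these lists. All ZT12 arrays lay below all ZT0 arrays for 24, 15 and 4 of them, and for 9.8% of all genes. Of the subunits of respiratory complex I, Ndufb3 fell by 0.35 ± 0.09 (adjusted p = 0.0222) and the other 32 did not pass. None of 36 genes of complexes II to V passed (median -0.14, 12 lower and 0 higher unadjusted). Negative differences were found for 29 of 33 complex I genes and for 30 of the 36. All ZT12 arrays lay below all ZT0 arrays for 11 and 16 of them. Ndufb3 was lost without ZT0 replicate 1 or 4 or ZT12 replicate 2 or 3.

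In fatty acid oxidation, 2 of 21 genes fell: Acadl, a long-chain acyl-CoA dehydrogenase, by 0.59 ± 0.08 (adjusted p = 2.52e-05), and Hadhb, a subunit of the trifunctional protein, by 0.41 ± 0.09 (adjusted p = 0.00906), which was lost without ZT12 replicate 3. Acadl read 8.72, 8.71, 8.68 and 8.51 at ZT0 and 8.04, 8.11 and 8.06 at ZT12, with both groups tight and apart, and its other probe set gave -0.07. The desaturase gene Scd1 was the 1 of 16 fatty acid synthesis genes to fall, by 0.51 ± 0.10 (adjusted p = 0.00151). The glycolysis genes Aldoa and Pfkp fell by 0.24 ± 0.06 and 0.27 ± 0.07 (2 of 12), with -0.10 in the other probe set of Pfkp. Both were lost without any 1 of the 3 ZT12 arrays. In the endoplasmic reticulum the chaperone genes Calr and Hsp90b1 fell by 0.48 ± 0.10 and 0.33 ± 0.07, Ddit3 fell by 0.27 ± 0.08 and Herpud1 rose by 0.40 ± 0.10, of 21 genes. All 4 were lost without ZT12 replicate 2. None of 15 heat shock genes passed (limma; 2 lower and 0 higher at an unadjusted p under 0.05).

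Among stress response genes, 1 of 18 p53 targets rose, Trp53inp1 (0.68 ± 0.19, adjusted p = 0.0447), and 1 of 21 antioxidant genes, the glutathione transferase gene Gsto1 (0.33 ± 0.08, adjusted p = 0.0239). Both were lost without any 1 of the 3 ZT12 arrays. No gene passed in limma among 21 of TGF-beta and BMP signalling, 18 of Wnt, 10 of Notch, 11 interferon-induced and 18 of cholesterol synthesis and uptake. At an unadjusted p under 0.05 these had 3, 0, 1, 0 and 0 genes higher and 0, 2, 1, 2 and 4 lower.

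Most markers of keratinocyte layers and of other cell types did not pass, and of all genes tested 2.61% passed. None of 13 basal markers passed (1 higher at an unadjusted p under 0.05), and none of 16 bulge markers (1 higher and 1 lower). Their medians were 0.05 and -0.01. Of 17 suprabasal markers, Sbsn and Krtdap, genes of differentiating cells, fell by 0.47 ± 0.11 and 0.59 ± 0.16, and Ovol1, a factor that drives exit from proliferation, rose by 0.74 ± 0.19. None of the 3 passed without ZT12 replicate 2 or 3. At an unadjusted p under 0.05 (limma), 3 suprabasal markers were higher and 4 lower. All ZT12 arrays lay below all ZT0 arrays for 5 of the 17, and for 9.8% of all genes. They lay above for 1 of the 17, and for 6% of all genes.

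Of 17 leukocyte and Langerhans cell markers, Cd52 rose by 0.72 ± 0.13 (adjusted p = 0.00121), while 12 had a negative difference (median -0.12). At an unadjusted p under 0.05, 1 was higher and 5 were lower. Ptprc, the pan-leukocyte marker, averaged 4.50 and 4.32, and Cd207 of Langerhans cells 5.72 and 5.44. Their mean list level was 6.85 to 7.06 at ZT0 and 6.80 to 6.88 at ZT12. None of the 8 melanocyte, 12 fibroblast or 8 endothelial markers passed, with 1, 0 and 0 higher and 0, 1 and 1 lower at an unadjusted p under 0.05. The mean melanocyte list level nonetheless did not overlap between ZT0 (5.91 to 6.03) and ZT12 (6.10 to 6.13). The same held for the endothelial list (5.62 to 5.64 and 5.59 to 5.60). It also held for several lists that are not cell type markers, such as respiratory complex I (10.01 to 10.12 and 9.87 to 9.93). The part of these levels in the differences above was not tested.

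A few of the largest differences belonged to none of these groups. Mapre2, a microtubule end-binding protein gene, read 6.40, 6.02, 5.24 and 5.21 at ZT0 and 7.45, 7.29 and 8.03 at ZT12. The arrays were spread but apart, with a rise of 1.87 ± 0.31 (adjusted p = 0.00023), and its other 3 probe sets gave 0.18 to 0.27. Adamts1, a secreted metalloprotease gene, rose by 1.45 ± 0.23, and Cd55b, a regulator of complement, by 1.30 ± 0.24 (0.16 in its other probe set). Ttc9, a gene with tetratricopeptide repeats, read 8.66, 8.08, 8.21 and 8.46 at ZT0 and 6.53, 6.66 and 6.34 at ZT12. It fell by 1.84 ± 0.20 (adjusted p = 3.02e-07), and by 0.93 in its other probe set.

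The high fat diet gave the same comparison in arrays that share none with the control diet. The labels do not say whether both diets were collected on the same days, so a day effect common to both cannot be told apart from time point here either. There 2201 genes passed (12.9%; 1422 higher, 779 lower). Of the 447 genes called on the control diet, 162 were called in the same direction in both diets, which is 36.2% of the control list and 7.36% of the high fat list. A further 30 were called in opposite directions. The sign of the difference was shared by 69.6% of the 447 and by 47.1% of all genes tested.

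The cell cycle lists and part of the clock moved the same way in the high fat arrays. Arntl differed by -2.74 ± 0.31, Tef by 1.97 ± 0.12, Nr1d2 by 1.89 ± 0.16 and Dbp by 2.14 ± 0.18. Of the 9 repressors 5 rose on the high fat diet (median 0.72, against 1.42 on the control diet), and Per1 (0.49 ± 0.22, adjusted p = 0.144) and Bhlhe40 (-0.06 ± 0.19) did not pass. Of the 6 output genes 3 rose and 2 fell, with Usp2 at -1.21 ± 0.37 (adjusted p = 0.0298) and Wee1 not past the threshold (0.58 ± 0.22, adjusted p = 0.072). Of the S phase genes, 20 of 27 rose and none fell (median 0.57), and of the mitosis genes 20 of 23 fell and none rose (median -0.94). No member of either list passed the test of the difference between diets (limma). At an unadjusted p under 0.05 there were 5 of 27 S phase and 4 of 23 mitosis genes, against 3835 of all 17097 genes. For Cdt1 the control minus high fat difference was 0.18 ± 0.29, and for Mki67 -0.12 ± 0.20.

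The change from dawn to dusk differed between the diets for 1243 genes (7.27%), of which 394 were higher on the control diet (2.3%) and 849 lower (4.97%). The higher share was 31.7%, and 44.7% after subtracting the median of the tested genes from each array. Leaving out high fat ZT0 replicate 1 gave 647 genes, control ZT12 replicate 2 684 and control ZT12 replicate 1 756.

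Part of the clock was in this group. The control difference exceeded that of the high fat diet for Per2 by 0.76 ± 0.20 (adjusted p = 0.0186), for Per1 by 1.00 ± 0.31 (adjusted p = 0.0467), for Cry2 by 0.57 ± 0.17 (adjusted p = 0.0414) and for Bhlhe40 by 0.97 ± 0.26 (adjusted p = 0.0211). These 4 repressors were reduced to 2 without any 1 of 7 of the arrays, to 1 without high fat ZT0 replicate 2 and to 0 without control ZT12 replicate 3. Nfil3 fell on the high fat diet (-1.94 ± 0.20, adjusted p = 8.94e-08). Its difference between the diets was 1.76 ± 0.28 (adjusted p = 0.00043). On the high fat arrays it read 8.31, 8.16 and 8.47 at ZT0 and 6.43, 6.06, 6.89 and 6.12 at ZT12, whereas the control arrays overlapped.

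Immediate early genes and genes of protein synthesis and respiration were also among those that differed. Of 23 immediate early genes, 13 had a higher change on the control diet and none a lower one. Nr4a2 rose on the control diet and fell on the high fat diet (-1.35 ± 0.16), a difference of 2.03 ± 0.23 (adjusted p = 7.45e-06). It read 9.73, 9.82 and 9.62 on the high fat ZT0 arrays and 8.23, 8.46, 8.31 and 8.47 at ZT12, against 8.89, 8.87, 8.42 and 9.05 and then 9.63, 9.44 and 9.38 on the control diet.

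Of the 67 cytosolic ribosomal protein genes, 50 had a lower change on the control diet, as did 20 of 33 complex I genes, 19 of 36 genes of complexes II to V and 21 of 73 mitochondrial ribosomal protein genes. In each of these lists none had a higher one. After subtracting the median of the tested genes the counts were 46, 19, 14 and 16. With a minimum of 1.5-fold they were 8, 12, 6 and 11. Without high fat ZT0 replicate 1 the counts for complex I, complexes II to V and the mitochondrial ribosome were 10, 4 and 8, and without control ZT12 replicate 1 they were 13, 12 and 10. Without control ZT12 replicate 2 those of complexes II to V and the mitochondrial ribosome were 10 and 11, and without high fat ZT0 replicate 2 that of the mitochondrial ribosome was 13. On the high fat diet 52 of the 67 cytosolic ribosomal protein genes rose.

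**Figure D5:**
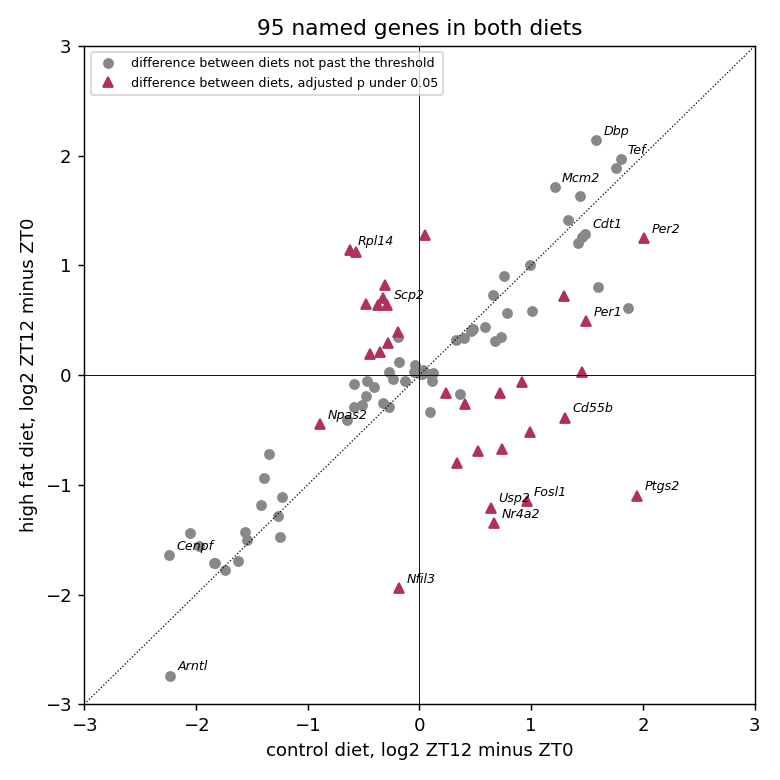
Log2 difference ZT12 minus ZT0 on the control diet (x axis) and on the high fat diet (y axis) for 95 named genes, with triangles where the difference between diets had an adjusted p (limma) under 0.05 and a dotted line of equality. Tef and Cdt1 lie near the line. Arntl, Cenpf and Dbp lie further from it (0.51, -0.60 and -0.56, control minus high fat) without passing the threshold. Nr4a2, Fosl1, Ptgs2 and Usp2 lie below the x axis with a positive control difference.

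The neighbouring times on the control diet give a further view in arrays that neither group used. The mean of ZT8 and ZT16, either side of dusk, was compared with the mean of ZT20 and ZT4, either side of dawn (13 arrays). The sign was that of the ZT12 minus ZT0 difference for 179 of the 263 genes that fell (68.1%), for 94 of the 184 that rose (51.1%) and for 50.6% of all genes. Without the 2 arrays of ZT8 these shares were 66.9%, 63% and 50.6%. The mitosis genes were lower around dusk (21 of 23, median -0.72), and 7 of 9 clock repressors were higher (median 0.50). Of the 6 clock activators and ROR receptors 4 were lower (median -0.10). The clock outputs were higher in 3 of 6 (median -0.23, and 0.38 without ZT8) and the glucocorticoid-induced genes in 6 of 14 (median -0.09, and 0.10 without ZT8). Of the S phase genes 11 of 27 were higher (median -0.04), and 25 of 27 shared the sign of their difference when ZT8 was left out (median 0.34).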

How the data were processed

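The authors made the log2 values with RMA, per the submitters' processing notes; its version is not given in the sources used here. Labelling started from 25 ng of RNA and 17 amplification cycles, per the labels. The deposited table holds 45141 probe sets, of which 28898 name 1 gene, 551 several (left out) and 15692 none here. Where a gene had several probe sets (7180 genes), the brightest on average stood for it. Scanner files were not used here, so signal over background is unknown. Precision is limited by the number of arrays.

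A mean for each of 12 diet by time groups was fitted to all 41 arrays with limma 3.58.1 in R 4.3.3 (29 residual degrees of freedom, 2.635 prior), without a filter on low values. Contrasts were ZT12 minus ZT0 in each diet and their difference. Adjusted p is Benjamini-Hochberg over all 17097 genes, threshold 0.05. The code was tested on simulated data. Promoter windows came from RefSeq tables (GRCm38.p6).

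The comparison, the gene lists and the rules were chosen with earlier results of these data known. Named by rule were the 15 largest rises and 15 largest falls, all measured clock genes, up to 4 called members of other lists, defining markers, the 10 smallest p of the diet difference and 5 genes called in both diets, without predicted genes. Other list members, and the comparison of neighbouring times, were chosen after seeing the values. Alternatives were other array sets, probe set means, a filter on dim genes, trended eBayes, array weights, centring, a replicate block, a fold minimum and leaving out each array.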

Additional observations from a re-analysis of the deposited data

Results flagged for a closer look

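Mcm2 on ZT0 replicate 1 stood apart from the other 3 ZT0 arrays. Its gap to the nearest of them was 0.897 of the range, above the critical value for 4 samples. Among the 95 named genes this was the only control ZT0 group so marked, and chance marks about 1 group in 20. High fat groups are not counted here: Cdkn3, for example, read 6.77, 5.84, 5.72 and 5.73 on the high fat ZT12 arrays.

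For 31 named genes the change from ZT0 to ZT12 differed between the diets (limma, adjusted p under 0.05), given here as control minus high fat on the log2 scale. Higher on the control diet were the clock genes Per2 (0.76), Per1 (1.00), Cry2 (0.57), Bhlhe40 (0.97), Nfil3 (1.76), Usp2 (1.85) and Rora (0.40). Immediate early and inflammatory genes were Nr4a2 (2.03), Fosl1 (2.12), Klf6 (0.67), Tnfaip3 (1.51) and Ptgs2 (3.05). The other higher values were those of Adamts1 (1.43), Cd55b (1.69), Ovol1 (1.41), Cd52 (0.87), Pmel (1.14) and Tiparp (1.21).

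Lower on the control diet were Npas2 (-0.44), Cdkn2c (-0.63), Ndufb3 (-0.56), Cd34 (-1.13), Cd207 (-0.57) and Scp2 (-0.93). The remaining genes were Mesp1 (-0.58), S100a4 (-1.69), Rpl14 (-1.76), H2-Aa (-1.01), Tmem238 (-1.03), Naglu (-1.13) and Ebpl (-1.24). Scp2, which encodes a sterol carrier, averaged 9.03 ± 0.04 (SD, n = 4) at ZT0 and 8.73 ± 0.05 (n = 3) at ZT12 on the control diet, and ran from 8.55 to 8.87 and then from 9.25 to 9.50 on the high fat diet. Its arrays did not overlap in either diet, and they moved in opposite directions.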

How the results depend on the processing

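The control diet gave 447 genes, against 220 to 405 when 1 of the 7 arrays was left out. It gave 433 with only the 7 arrays (272 of them shared with the 447) and 963 with array weights (all 447 among them). At least 1.5-fold changes numbered 205 on the control diet, 555 on the high fat diet, 621 for the difference between diets and 89 for genes shared by both diets. Leaving out 1 high fat array gave 1216 to 2152 genes on the high fat diet (1216 without ZT0 replicate 1). Leaving out 1 ZT0 or ZT12 array of either diet gave 647 to 1266 for the difference and 111 to 156 shared genes. The cause was not tested. With the replicate number as a block, the control diet gave 442 genes, 407 of them shared with the main list. Deviations from the group means had correlations of 0.127, -0.0501 and -0.0977 between ZT0 and ZT12 arrays with the same number. These lay within the range for arrays with different numbers (-0.234 to 0.187). With so few arrays per group, whether the numbers pair the arrays cannot be decided from these values. Of the 69 named genes called, 44 passed under every setting checked for them, and none reversed. The fold minimum and the leaving out of single high fat arrays were not among the settings checked. The 44 genes included 12 of 13 clock genes (Hlf did not pass with only the 7 arrays) and 29 of the 30 largest changes (all but Ptgs2).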
